A study of Homo sapiens with 4 samples.

Results

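The ID genes (ID1, ID2, ID3 and ID4) and the MSX genes (MSX1 and MSX2) were followed in HEK293, a long-established cell line from human embryonic kidney, grown in high or low glucose. They were found as the probe sets that the platform annotation assigns to exactly 1 gene with one of these 6 symbols. This gave 14 of the 41091 probe sets that name a single gene, and 6 of 19775 genes: 1 probe set for ID1, 2 for ID2, 1 for ID3, 5 for ID4, 2 for MSX1 and 3 for MSX2. The 6 genes were selected on their differences between the high and low glucose signals of these same arrays. Those differences are therefore a description, with no test, and support nothing beyond themselves.

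Total RNA was measured on 4 single-colour Affymetrix arrays. High glucose cells spent 7 days in DMEM with 10% FCS and glucose at 450 mg/dl (2 arrays), and low glucose cells 7 days in the same medium with glucose at 100 mg/dl (2 arrays). Per the labels the 2 arrays of a condition are biological replicates, without a statement on how the cultures were kept apart, so errors and p-values measure the spread between these samples only. All samples are 1 cell line, with no other cell line or tissue beside it. In bulk RNA, fewer cells that express a gene and less of its RNA per cell cannot be told apart.

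ID proteins are helix-loop-helix proteins without a DNA-binding basic region. They pair with bHLH transcription factors, above all the E proteins, and keep them from binding DNA, which holds back differentiation and favours proliferation. MSX1 and MSX2 are homeodomain repressors of limb, tooth and craniofacial development. Both families are classical targets of bone morphogenetic protein (BMP) signalling, in which ligands bind serine/threonine kinase receptors that phosphorylate SMAD1, SMAD5 and SMAD9. These join SMAD4 and bind DNA at GC-rich motifs and at GTCT cores, and the inhibitory SMAD6 and SMAD7 are induced in turn.

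The 250 bases before the start of ID1, ID2 and ID3, the ID genes with the largest differences, and of MSX1, the gene that was lower in high glucose, are shown, since these are the members at the upper and lower end of the differences below. They are RefSeq sequences of GRCh38.p14, 5′ to 3′ on the strand of the gene. Capitals mark GTCT or its reverse complement AGAC, the SMAD core, and would also mark GGCGCC, a GC-rich BMP-type SMAD motif, which was found in none of the 4.
ID1, chr20:31605039-31605288, plus strand: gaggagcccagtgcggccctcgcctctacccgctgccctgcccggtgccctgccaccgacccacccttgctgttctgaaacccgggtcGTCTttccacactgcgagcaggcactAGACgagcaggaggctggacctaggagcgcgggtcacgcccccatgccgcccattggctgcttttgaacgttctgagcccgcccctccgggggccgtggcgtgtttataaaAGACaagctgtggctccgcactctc
ID2, chr2:8681806-8682055, plus strand: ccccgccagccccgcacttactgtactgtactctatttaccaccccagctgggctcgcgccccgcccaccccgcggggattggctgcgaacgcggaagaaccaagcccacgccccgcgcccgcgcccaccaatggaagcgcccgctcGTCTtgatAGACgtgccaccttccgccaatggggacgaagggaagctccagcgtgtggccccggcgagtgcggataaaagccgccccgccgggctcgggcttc
ID3, chr1:23559502-23559751, minus strand: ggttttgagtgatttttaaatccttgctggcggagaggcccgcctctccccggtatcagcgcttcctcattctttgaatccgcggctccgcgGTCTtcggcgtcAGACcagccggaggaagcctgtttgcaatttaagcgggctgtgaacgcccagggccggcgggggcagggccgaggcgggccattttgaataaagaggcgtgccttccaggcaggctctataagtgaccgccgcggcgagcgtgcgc
MSX1, chr4:4859415-4859664, plus strand: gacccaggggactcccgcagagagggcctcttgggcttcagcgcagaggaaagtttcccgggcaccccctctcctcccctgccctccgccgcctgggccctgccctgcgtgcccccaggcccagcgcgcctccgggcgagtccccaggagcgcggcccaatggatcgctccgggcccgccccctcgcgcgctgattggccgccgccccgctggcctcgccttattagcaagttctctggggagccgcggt
The SMAD core had 3 matches before ID1, 2 before ID2, 2 before ID3 and 0 before MSX1. Before ID4 and MSX2, not shown, it had 1 and 3. The 4-letter core is common: 77.5% of the 35116 windows of this length in the table hold at least 1 match on either strand. GGCGCC, searched on both strands like every motif here, was in 16.4% of windows and in 0 of the 6 members, which says only that these letters do not occur in those 250 bases. TATAAA was found before ID1 and ID4 (10.7% of all windows). CCAAT, which lies apart from the SMAD letters, was found before all members but ID3 (32.0% of windows). CANNTG, the E-box bound by the bHLH partners of ID proteins, was found before ID2 and ID4 (61.8% of windows). G and C made up 55.6% (MSX2) to 78.8% (ID4) of the member windows, against a median of 58.0% over all windows.

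In these cells ID1, ID2, ID3 and MSX2 gave higher signals in high than in low glucose, ID1 by the most, and MSX1 gave lower signals. The 5 ID4 probe sets went both ways. Signals are linear intensities scaled by the authors to a common trimmed mean of 200.02 per array, and differences are on the log2 scale, high minus low. A probe set was kept for fitting when its mean log2 signal reached the median, a signal of 32.9. Of the 14 member probe sets 13 were kept, and all 6 genes had at least 1. Among the 13, the arrays of the groups did not overlap in any: 8 were higher and 5 lower in high glucose. Over all 27307 kept probe sets, 35.3% were higher and 41.5% lower without overlap, 76.8% together, so that separation alone is common here. The median difference was 0.45 over the 13 member probe sets and -0.06 over all kept probe sets.

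Certain control and marker values differed between arrays. Bacterial poly-A spikes go into the RNA ahead of labelling. All 24 of their probe sets were higher in high glucose without overlap, by a median of 1.94 log2 units (3.84-fold). Of the members, only ID1 had a larger difference. The median over 18 hybridisation controls was 486 for high glucose replicate 1 and between 869 and 891 for the other 3 arrays. Median centring moved the median difference of all genes from -0.10 to 0.07, and with it the share of higher genes among all calls from 42.1% to 58.8%. Of 9 HEK293 markers with a probe set 7 lay above the filter signal, while NEFM and INA, neurofilament genes, lay below it. Of markers of other cell types, 1 of 5 haematopoietic, 1 of 5 endothelial, 1 of 5 hepatocyte and 2 of 6 fibroblast genes lay above it. The summed fibroblast markers reached 527 and 536 in high and 334 and 384 in low glucose, with COL1A2, DCN, LUM and PDGFRB below the filter signal. COL1A1 and COL3A1, above it, stood at 0.55 and 1.08 log2 units, high minus low. Of the HEK293 markers above it, KRT8 and KRT18 stood at 1.06 and 1.07. The others ran from -1.01 (EYA1) to -0.14 (NEFL), with VIM at -0.91. The part of the spikes and of these markers in the differences below was not tested.

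**Figure D1:**
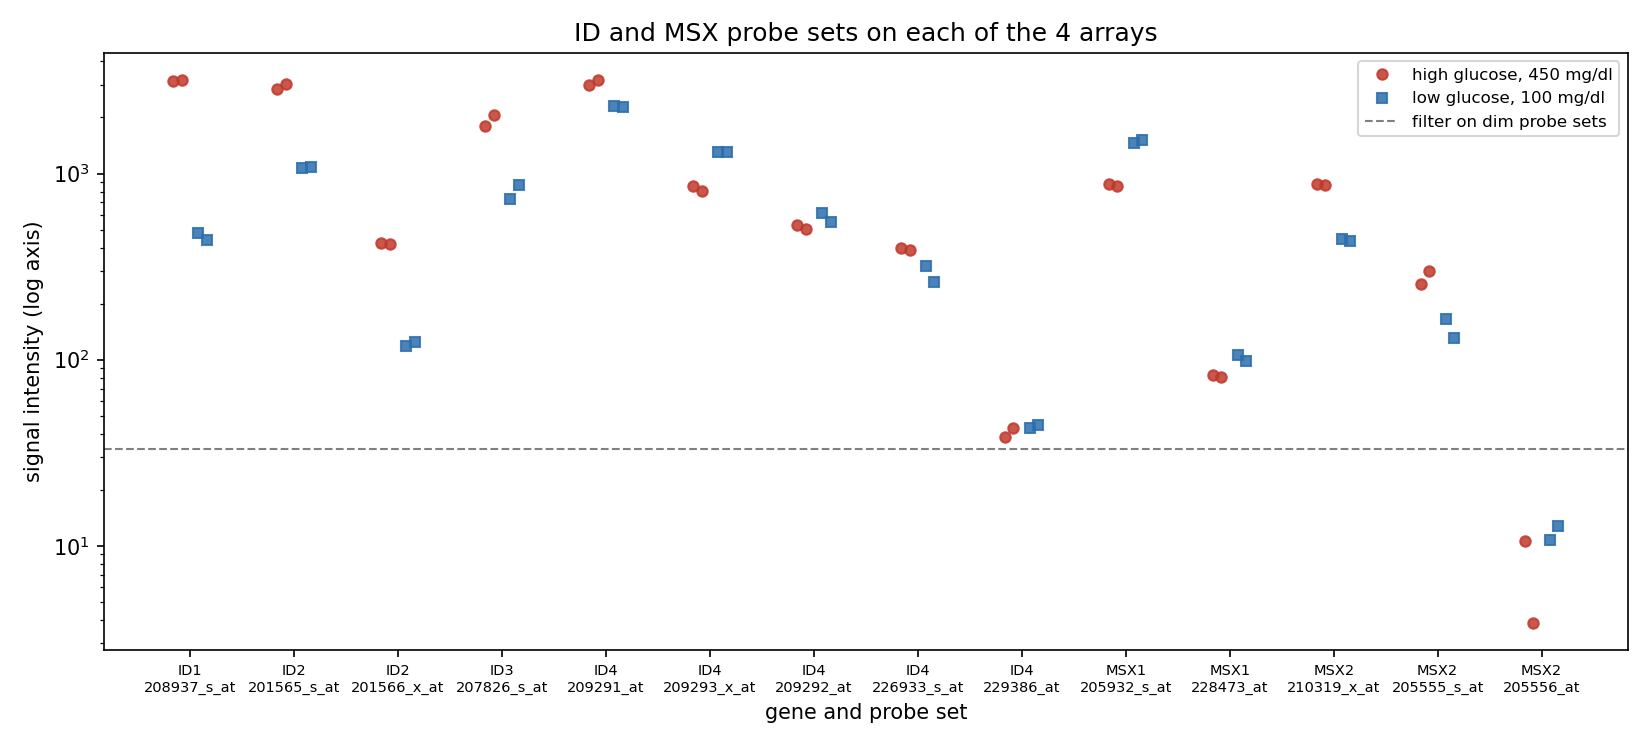
Signal intensity (log axis) of each of the 14 ID and MSX probe sets on each array, with circles for the 2 high glucose and squares for the 2 low glucose arrays; the dashed line is the filter signal of 32.9. ID1 stands at 3125 and 3174 against 481 and 441, and the MSX2 probe set 205556_at lies below the line on all 4 arrays.

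ID1, the family member most often used as a readout of BMP and SMAD activity, had signals of 3125 and 3174 on high glucose replicates 1 and 2, and of 481 and 441 on low glucose replicates 1 and 2. Both high glucose arrays lay far above both low glucose arrays, and within a group the replicates differed by 0.02 (high) and 0.13 (low) log2 units. The difference was 2.77 ± 0.07 log2 units (SE from limma), or 6.84-fold. Among the 12242 genes measured, each by its brightest probe set, 12 had a larger rise. ID1 is covered by this single probe set, 208937_s_at.

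ID2, an ID protein also known to bind the retinoblastoma protein, gave 2831 and 3026 in high and 1076 and 1086 in low glucose with its brighter probe set, 201565_s_at. The dimmer one, 201566_x_at, gave 424 and 418 against 118 and 125. On both probe sets every high glucose array exceeded every low glucose array, with differences of 1.44 ± 0.06 (2.71-fold) and 1.79 ± 0.10 (3.47-fold). A further probe set, 213931_at, is annotated to ID2 and to ID2B together and so was not counted as a member. It gave 124 and 145 in high and 84.1 and 139 in low glucose, with overlapping groups and a difference of 0.31 ± 0.25.

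ID3, whose product acts on E proteins as ID1 does, had signals of 1807 and 2066 in high and 730 and 864 in low glucose on its only probe set, 207826_s_at. The groups were apart, and the difference was 1.28 ± 0.10 log2 units (2.43-fold). Its replicates differed by 0.19 and 0.24 log2 units in high and low glucose, against medians of 0.13 and 0.13 over all kept probe sets. The differences of ID1, ID2 and ID3 lay above the 95th percentile of all genes, 0.87.

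ID4, a family member that can act against the other ID proteins, had no single direction. Its brightest probe set, 209291_at, gave 2984 and 3166 in high and 2297 and 2267 in low glucose, a difference of 0.43 ± 0.06. Probe set 226933_s_at was higher as well, with 400 and 390 against 318 and 262 (0.45 ± 0.11). On both, each high glucose array lay above each low glucose array.
Probe set 209293_x_at went the opposite way, with 859 and 804 in high and 1309 and 1306 in low glucose, a difference of -0.65 ± 0.06. Probe sets 209292_at (532 and 504 against 614 and 548) and 229386_at (38.5 and 42.8 against 43.2 and 44.6) were lower by small margins, at -0.16 ± 0.08 and -0.11 ± 0.27. The direction of those 2 turned under other scaling: after median centring they stood at 0.0075 and 0.059, and 229386_at stood at 0.045 after quantile normalization. The ID4 probe sets spanned 1.11 log2 units among themselves, so the data give ID4 no settled direction.

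**Figure D2:**
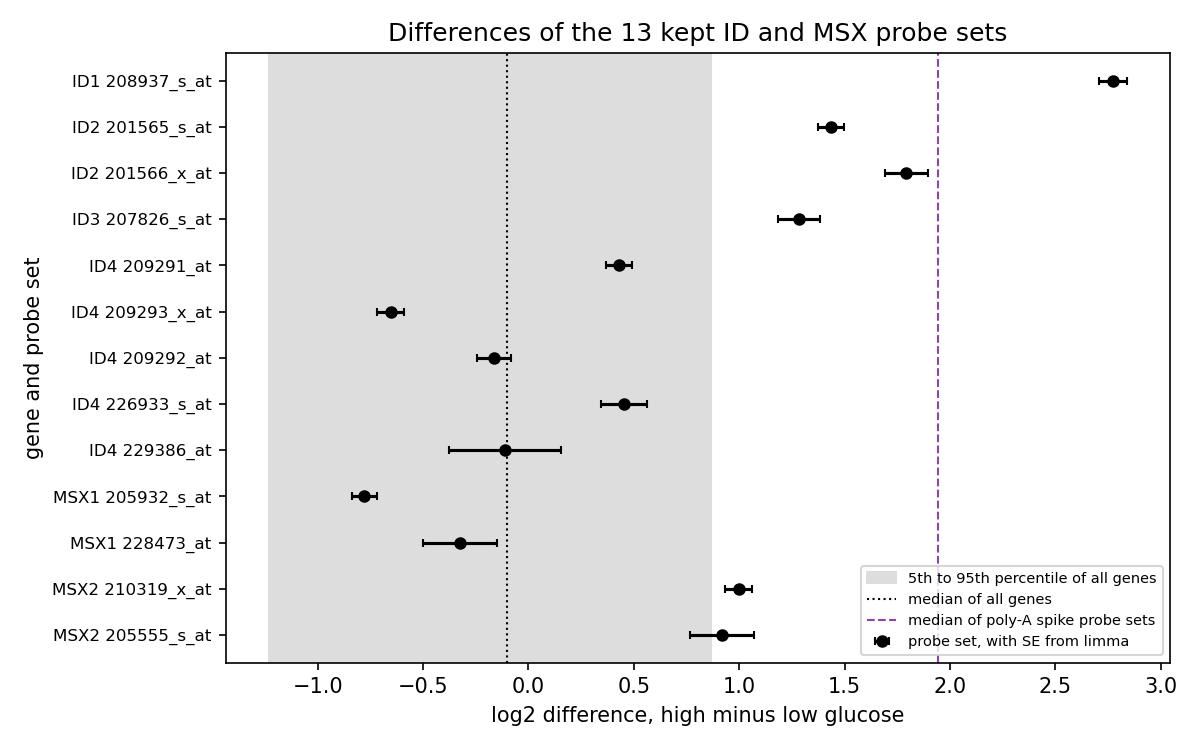
Log2 difference between high and low glucose of the 13 kept probe sets, with the SE from limma as bars. The grey band spans the 5th to the 95th percentile of all 12242 genes (-1.23 to 0.87), the dotted line is their median (-0.10) and the dashed line the median of the poly-A spikes (1.94). The probe sets of ID1, ID2, ID3 and MSX2 lie above the band, those of ID4 and MSX1 inside it.

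MSX2 was higher in high glucose on both kept probe sets. Probe set 210319_x_at gave 880 and 872 in high and 444 and 433 in low glucose (1.00 ± 0.06 log2 units, 2.00-fold), and 205555_s_at gave 256 and 299 against 165 and 130 (0.92 ± 0.15). High and low arrays were apart on both. The third probe set, 205556_at, did not reach the filter signal: high glucose arrays gave 10.6 and 3.87, low glucose arrays 10.8 and 12.8. Signals that low, with a gap of 1.46 log2 units between the high glucose replicates, give no direction.

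MSX1, the paralog of MSX2, was lower in high glucose on both of its probe sets. Probe set 205932_s_at gave 879 and 856 in high and 1455 and 1519 in low glucose, and 228473_at gave 82.3 and 80.4 against 106 and 98.3. No high glucose array reached a low glucose array on either. The differences were -0.78 ± 0.06 and -0.32 ± 0.18 log2 units, and 1730 of 12242 genes had a larger fall than the first. The sign of both held under every normalization tried, the second at -0.15 after median centring. MSX1 and MSX2 thus lay on opposite sides of the median of all genes. The difference between the paralogs was not tested.

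Among the other genes of BMP signalling and the partners of ID and MSX proteins, 9 lists by role held 160 genes, of which 116 were measured. In the limma fit over all 12242 genes, 35 of these rose and 39 fell in high glucose at a Benjamini-Hochberg adjusted p under 0.05, or 63.8%. Over all genes 57.6% were called, 24.3% higher and 33.3% lower. The median difference was -0.07 in the lists and -0.10 over all genes. The lists together therefore stand near the background, and their single genes are given for their own values. Of the 35, 2 (BMP4 and THBS1) had low glucose signals below the filter. Of the 39, ACVRL1 had a mean log2 high glucose signal below it. After median centring 42 of the list genes rose and 28 fell. Over all genes 4052 were then called higher and 2835 lower, so the balance of directions depends on the scaling.

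Of 7 measured BMP ligands, 4 rose and 1 fell (71.4% called, against 57.6% of all genes). The list median of 0.50 is the value of BMP7, which has no settled direction, as given below. One of the 4, BMP4, reached the filter only through its high glucose arrays, and with the stricter filter 3 rose. BMP2, a ligand of the BMPR1A and BMPR1B receptors, gave 919 and 814 in high and 294 and 339 in low glucose, a rise of 1.46 ± 0.10 log2 units (limma adjusted p = 2.0e-05). Its other probe set stood at 1.44. BMP4, the closest relative of BMP2, gave 72.0 and 79.0 in high and 19.1 and 13.7 in low glucose, the latter below the filter signal. Its own difference let it through the filter, so its difference of 2.22 ± 0.34 is given as a description. For both ligands the high glucose arrays lay above the low glucose arrays, and the poly-A spikes moved the same way, by 3.84-fold.
BMP7, a ligand of kidney development, rose by 0.50 ± 0.08 in its brightest probe set, but its other 3 ran from -0.84 to 0.58 and 1 was called in the opposite direction. BMP8B fell by 0.96 ± 0.14, while its other probe set stood at 0.68. With the mean over probe sets neither was called (0.01 and -0.14, adjusted p = 0.95 and 0.48), so these ligands have no settled direction.

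Of 10 measured receptors and co-receptors, 0 rose (1 after median centring and 1 with the mean over probe sets) and 7 fell. That is 70% called, against 57.6% of all genes, and the median was -0.58. One of the 7, ACVRL1, gave 23.4 and 46.0 in high and 56.6 and 94.7 in low glucose. Its mean log2 signal reached the filter only through the low glucose arrays, and with the stricter filter 6 fell. RGMA and RGMB, membrane co-receptors of BMP ligands, fell from 338 and 355 to 168 and 182 (-0.99 ± 0.11, adjusted p = 1.8e-04) and from 355 and 429 to 180 and 192 (-1.07 ± 0.12, adjusted p = 2.3e-04). NEO1, the neogenin receptor to which they bind, fell by 0.79 ± 0.10 (-0.52 with the mean over probe sets). BMPR1B, a type I receptor, gave 174 and 109 in high and 218 and 247 in low glucose (-0.75 ± 0.22). It lost its call without high glucose replicate 2 (-0.41) and without low glucose replicate 2 (-0.66), as well as with no variance trend. Its other probe set stood at 0.20, and with the mean over probe sets it was not called (-0.28, adjusted p = 0.17), so BMPR1B has no settled direction. BMPR2, the type II receptor for BMPs, stood at 0.16 ± 0.07 in its brightest probe set and did not pass. Its other 4 probe sets ran from 0.45 to 1.29, and 2 of them passed over all probe sets (adjusted p = 0.0033 and 0.024). Without high glucose replicate 1, high glucose replicate 2 or low glucose replicate 2 in turn, 4 receptors instead of 7 were called lower, as they were after quantile normalization.

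Among SMADs and their regulators 5 of 19 rose, 5 fell and 9 did not pass (median 0.05). That is 52.6% called, against 57.6% of all genes. SMAD7, an inhibitory SMAD that is itself a target of the pathway, gave 850 and 900 in high and 207 and 243 in low glucose, a rise of 1.96 ± 0.10 (adjusted p = 6.8e-06). SMAD6, the inhibitory SMAD of the BMP branch, gave 509 and 547 against 253 and 225 (1.14 ± 0.10, adjusted p = 5.6e-05), and its other 2 probe sets stood at 0.37 and 0.68 without passing (0.73 with the mean over probe sets). Neither gene overlapped between groups. SKIL, a SMAD co-repressor, rose by 1.73 ± 0.07 (1.09 with the mean over probe sets). CTDSP2, a SMAD phosphatase, fell by 0.85 ± 0.06 (-0.50 with that mean), and its other probe set stood at -0.15 without passing.
The SMADs that carry the BMP signal were picked after their values were seen. SMAD5 rose by 0.83 ± 0.07, and its other 4 probe sets ran from 0.16 to 1.25. SMAD1 fell by 0.57 ± 0.08 in its brightest probe set, while the other stood at 0.0049 ± 0.09. SMAD4 fell by 0.48 ± 0.09, and its other probe sets stood at -0.996 and -0.87. SMAD9 stood at 0.05 ± 0.07 and did not pass (adjusted p = 0.58).

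Antagonists and modulators of BMP rose in 6 of 13 and fell in 3 (69.2% called, against 57.6% of all genes, median 0.24). NOG, the secreted antagonist noggin, rose from 56.9 and 61.8 to 204 and 174 (1.67 ± 0.18, adjusted p = 1.7e-04). CRIM1, a transmembrane protein that binds BMPs, rose by 1.43 ± 0.07 in its brightest probe set. Its other probe sets stood at 2.93 and 1.21, and the mean over probe sets at 1.86. FSTL1, a secreted follistatin relative, rose by 0.74 ± 0.07 in its brightest probe set, and its others stood at -0.16 and 1.18. FST, follistatin itself, fell from 130 and 126 to 40.1 and 41.8 (-1.64 ± 0.21, adjusted p = 3.8e-04).

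Other genes that BMP is known to induce, a list that shares SMAD6, SMAD7, SMAD9, NOG, BAMBI and GREM1 with those above, rose in 10 of 23 and fell in 2 (median 0.21). The share called was 52.2%, against 57.6% of all genes. The 2 that fell were HES1 and HEY1, bHLH repressors that are also targets of Notch. HES1 gave 426 and 396 in high and 831 and 746 in low glucose (-0.94 ± 0.08, adjusted p = 6.2e-05), and HEY1 gave 1893 and 1774 against 3200 and 3151 (-0.79 ± 0.06, adjusted p = 3.4e-05). With the mean over probe sets HES1 stood at -0.71 and HEY1 at -0.77. HES1 and HEY1 were thus lower where ID1, ID2 and ID3 were higher.

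The bHLH partners of ID proteins fell in 6 of 10 and rose in 1 (2 after median centring), with a median of -0.35, HES1 and HEY1 included. The share called was 70%, against 57.6% of all genes. Of the E proteins, TCF4 rose by 0.48 ± 0.08 in its brightest probe set, and its other 6 ran from -0.11 to 0.96. TCF3 fell by 0.48 ± 0.07 in its brightest probe set. The other 9 TCF3 probe sets ran from -1.40 to 0.99, 3 of them called in the opposite direction, and with the mean over probe sets TCF3 was not called (-0.02, adjusted p = 0.88). TCF12, the remaining E protein, fell by 0.28 ± 0.09 (adjusted p = 0.026), and its other probe set stood at -0.34 without passing.

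Among 20 regulators of ID transcription and ID protein stability 7 rose and 8 fell (median -0.13). That is 75% called, against 57.6% of all genes. ATF3, a stress-induced factor known to repress ID1 together with SMADs, fell from 2109 and 2106 to 1202 and 1319 (-0.74 ± 0.06, adjusted p = 6.0e-05). FOXO3, a forkhead factor, fell by 0.87 ± 0.07 (-0.58 with the mean over probe sets). COPS5, a subunit of the COP9 signalosome, rose by 0.85 ± 0.07. SMURF2, a ubiquitin ligase of the pathway, rose by 0.69 ± 0.06 in its brightest probe set, while its others ran from -0.38 to 2.16 and 1 was called in the opposite direction. After median centring 4 of the list instead of 8 were called lower.

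All 9 genes listed as candidates for repression through ID proteins were called, 4 higher and 5 lower (median -0.30). One of the 4, THBS1, gave 115 and 115 in high and 16.2 and 8.70 in low glucose and reached the filter only through its high glucose arrays. With the stricter filter 3 were higher. Over all genes 57.6% were called, 24.3% higher and 33.3% lower. The list was chosen with earlier results of these data known, so its count is a description only. CDKN1A, the cell cycle inhibitor p21, fell from 2548 and 2437 to 628 and 660 (-1.95 ± 0.06, adjusted p = 8.1e-07), and CDKN1B, the inhibitor p27, fell by 0.81 ± 0.06. CAV1, the main protein of caveolae, rose by 1.89 ± 0.06 (1.75 with the mean over probe sets). EFNB2, the ligand ephrin-B2, rose by 0.77 ± 0.07 (1.11 with that mean). The list therefore held large differences in both directions. After median centring 3 of its genes instead of 5 were called lower.

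Of 17 MSX partners and homeobox relatives 5 rose and 5 fell (58.8% called, against 57.6% of all genes, median -0.14). EMX2, a homeobox gene of urogenital and cortical development, fell from 293 and 312 to 80.6 and 78.4 (-1.93 ± 0.13, adjusted p = 2.5e-05). BARX1 and DLX4, homeobox genes of craniofacial and related tissues, fell by 1.28 ± 0.20 and by 0.86 ± 0.16, and DLX2, which can dimerise with MSX proteins, rose by 0.54 ± 0.07 (0.83 with the mean over probe sets). The counts depend on single arrays: 3, 2 and 3 rose without high glucose replicate 1, high glucose replicate 2 and low glucose replicate 2, and 3 fell without low glucose replicate 1.

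**Figure D3:**
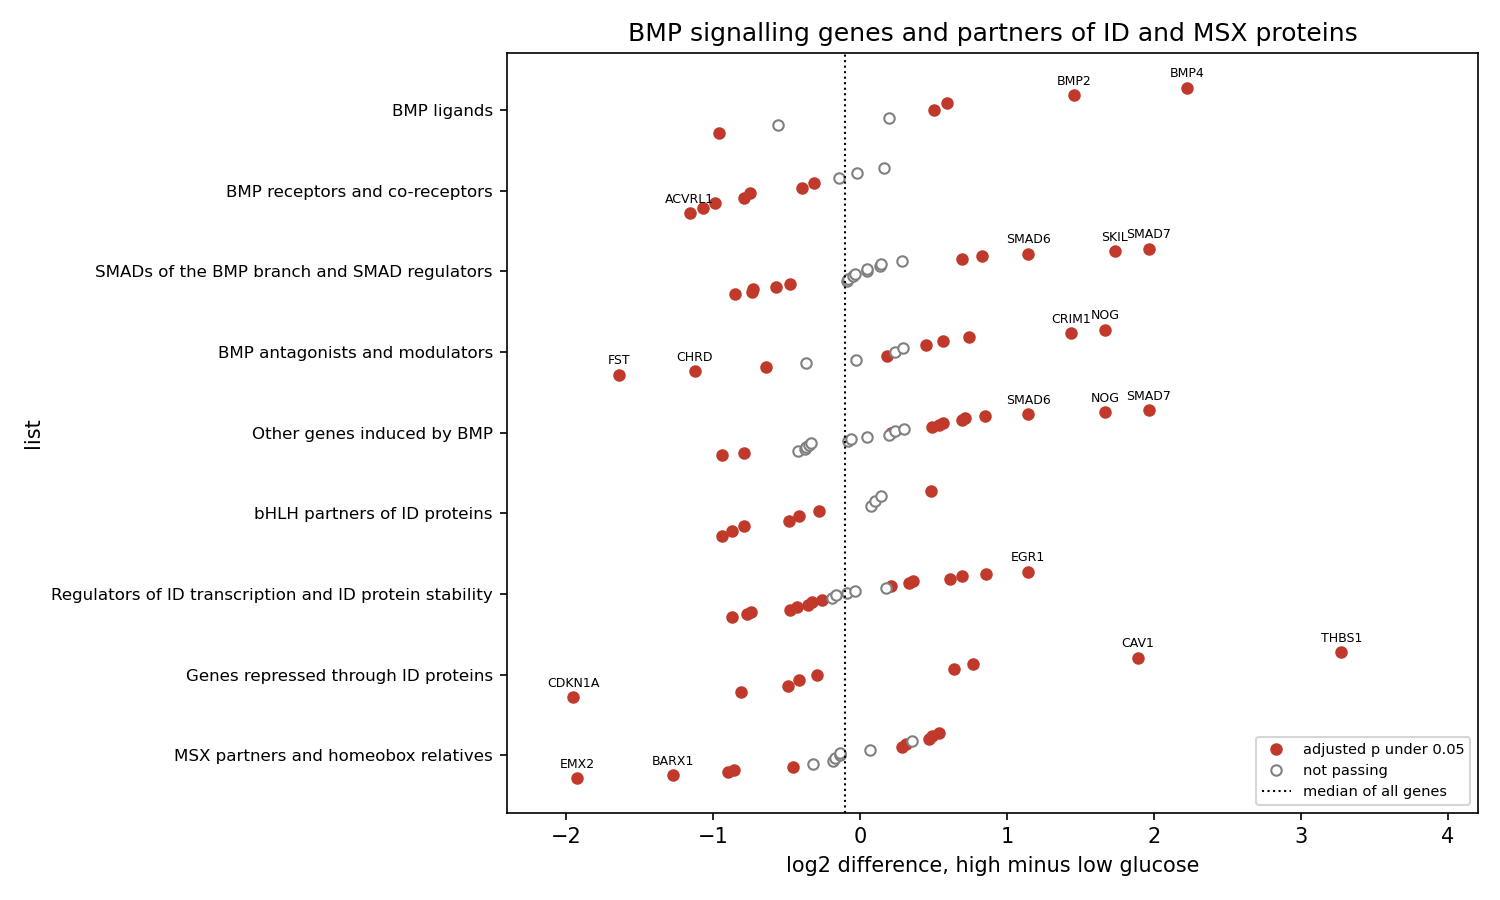
Log2 difference between high and low glucose of every measured gene of the 9 lists, 1 point per gene by its brightest probe set, filled where the limma adjusted p was under 0.05; the dotted line is the median of all genes (-0.10), and genes beyond about 1.1 log2 units are named. BMP4, THBS1, BMP2, SMAD7, SMAD6 and NOG lie to the right (the first 2 below the filter signal in low glucose). RGMA, RGMB and the other called receptors lie to the left, with ACVRL1 above the filter only through its low glucose arrays.

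The genes with the most similar pattern were taken as those with the smallest Euclidean distance to a member over the 4 log2 values, each gene centred on its own mean. With 4 arrays this measure is set mainly by the size of the glucose difference, and it is given as a description. Nearest to ID1 were AMOTL2 (distance 0.25, log2 difference 2.59), SYTL5 (0.26, 2.90) and CCN1 (0.26, 2.63). Nearest to ID2 were ALYREF (0.04, 1.43), IER3 (0.06, 1.45) and CRIM1 (0.07, 1.43), the last of them also among the modulators above. The other CRIM1 probe sets differed from this value, as given there. CRYZ, OMA1 and PHLDA2 lay nearest to ID3, WDR73, YWHAG and LYPLA2 to the brightest ID4 probe set, RNF103, CUTA and ACTA2 to MSX1, and DENR, CARM1 and THUMPD1 to MSX2. The 3 neighbours of ID1 lay farther from it than any other named neighbour lay from its member.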

How the data were processed

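Biotin-labelled cRNA from 4 HEK293 samples was hybridised to Affymetrix arrays, per the labels' protocols. The deposited values are linear intensities, 1 per probe set and array, which the authors made with GCOS per the submitters' processing notes. Its version and later steps: not given in the sources used here. Each array has a 2% trimmed mean of 200.02, so the authors scaled the arrays to one level, which hides any shift common to most transcripts. The number of arrays limits the precision.

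Intensities were log2-transformed without a pseudocount. After 62 control probe sets were left out, probe sets with a mean log2 signal at or above the median were kept (27307). Genes were named from GEO's platform annotation, with symbols updated by gene identifier in RefSeq GRCh38.p14 (41043 of 41097 single-gene probe sets matched), and represented by their brightest kept probe set (12242). The glucose groups were compared in R 4.3.3 by limma 3.58.1 (lmFit, eBayes with trend, 4 arrays, no covariate, two-sided), with Benjamini-Hochberg adjustment over all genes. Member probe sets took their SE from the same model over all kept probe sets. The fit was tested on simulated data.

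Members and lists were chosen with earlier results of these data known. Named were all member probe sets, in each list the 4 genes of lowest p, and the 3 nearest genes to each member. SMAD1, SMAD4, SMAD5, SMAD9, BMPR2, TCF12, THBS1 and the marker genes fall outside this rule. Replicate numbers 1 and 2 recur in both groups, but no label ties them to a shared batch.

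Promoter windows are the 250 bases before each gene's start from RefSeq, matched by symbol for all 6 members.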

Additional observations from a re-analysis of the deposited data

How the results depend on the processing

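Alternatives were quantile normalization, median centring, no filter, a filter at the 60th percentile, a pseudocount of 16, no variance trend, the replicate block, the mean over probe sets and leaving out each array in turn. The direction of the kept probe sets of ID1, ID2, ID3, MSX1 and MSX2, and of 3 for ID4, held under each of these but the mean over probe sets, which was not run for single probe sets. Of the ID4 probe sets, 209292_at turned to 0.0075 after median centring, and 229386_at to 0.059 after median centring and 0.045 after quantile normalization. The member probe sets lower without overlap then numbered 3 in place of 5 after median centring, and 4 after quantile normalization. With the stricter filter, which 229386_at did not reach, they also numbered 4. Arrays left out cannot create overlap, so the counts of 8 and 5 were not tested by that. ID1 ranged from 2.71 to 2.94 over all alternatives. Genes of all lists called higher ranged from 29 to 31 and called lower from 33 to 34 with 1 array left out, and all genes called higher from 2472 to 2717 and lower from 3404 to 3541. With the replicate block, 35 list genes were called higher and 38 lower, and 2959 and 4024 of all genes. Median centring turned the balance, with 42 list genes called higher and 28 lower, and 4052 and 2835 of all genes. Deviations of same-numbered arrays correlated at -0.004 across genes, so no shift shared by same-numbered arrays was seen. Whether those arrays were handled together cannot be told from this value. Of the 32 list genes named by the rule, all called, 28 kept their call with the mean over probe sets, where BMP7, BMP8B, BMPR1B and TCF3 lost it. BMPR1B also lost it with no trend, without high glucose replicate 2 and without low glucose replicate 2. BMP4 was below the stricter filter. Under the remaining alternatives all 32 kept it. Signals near the filter, as for 229386_at, BMP4 and 205556_at, limit what can be said of those probe sets.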
